A study of Mus musculus with 6 samples.

Results

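The RNA described here is the ribosomal RNA (rRNA) fragments recovered with Argonaute (Ago) proteins from mouse brain. The members were the unique read sequences above 0 in at least 1 of 6 libraries that matched no miRNA and whose deposited annotation named an rRNA record but no miRNA, tRNA or mRNA. The rule chose 2380 of the 65087 sequences above 0, and it did not use any comparison between genotypes. The members were grouped by annotation name and by read length.

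Ago-bound short RNA was sequenced from 3 WT and 3 Tau tg mice. Per the study's methods, all were 3-month-old males, and the Tau tg mice carried the coding sequence of a human tau fragment driven by the Thy 1.2 promoter, a neuronal promoter, on a C57BL/6J background, with non-transgenic controls. The sample source named hippocampus while the protocol named cortex and hippocampus combined, so the tissue is called brain here. Ago was captured with a peptide derived from GW182, and the table holds no transgene measurement against which the genotype labels could be checked. None of the 6 libraries was an input or mock capture. Ago-bound therefore means recovered with Ago here, and binding of the rRNA fragments was not tested apart from background.

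Values are RPM, reads scaled by the authors to the size of each library. They were whole multiples of 1 read within a small margin, which could not be checked for the largest values. The rRNA fragments held 10696, 8873 and 6317 reads in WT 1 to 3 and 24026, 5521 and 11729 reads in Tau tg 1 to 3. After the authors' removal of sequences, the 6 libraries held between 998248 and 6879551 reads in the table, and Tau tg 1 was the deepest. A count of 0 allows up to 2.75 RPM in WT 3, the shallowest library, but only 0.427 RPM in Tau tg 1. Intervals and limits of this kind cover counting error only.

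Ribosomes are built on 18S, 5.8S and 28S rRNA, which are cut from 1 long nuclear precursor by removal of its spacers, on 5S rRNA, which is transcribed separately, and, in mitochondria, on 12S and 16S rRNA. rRNA is the most abundant RNA of a cell, and its breakdown products are a common background in small RNA libraries. Ago proteins hold a short guide RNA and use the seed near its 5′ end to find targets, and most of their guides in brain are miRNAs. A seed is called toxic where an siRNA carrying it lowers the viability of cultured cells, and every read in the table carries the percent viability measured for its 6mer seed, averaged over murine cell lines. A low viability therefore means a toxic seed.

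The most abundant fragments were reads at the ends of mature rRNAs. The first set shows the 3′ end of 5.8S rRNA, where 1 start site was read with several 3′ ends. The seed, positions 2 to 7 of the read, is in capitals, and T stands for U in all sequences.
5.8S 3′ end, 20 nt: tACGCCTgtctgagcgtcgc
5.8S 3′ end, 21 nt: tACGCCTgtctgagcgtcgct
5.8S 3′ end, 22 nt: tACGCCTgtctgagcgtcgctt
5.8S 3′ end, 23 nt: tACGCCTgtctgagcgtcgcttt
5.8S 3′ end, 24 nt: tACGCCTgtctgagcgtcgctttt
5.8S 3′ end, start shifted by 1 base, 21 nt: aCGCCTGtctgagcgtcgctt
5.8S 3′ end, start shifted by 1 base, 22 nt: aCGCCTGtctgagcgtcgcttt
5.8S 3′ end, short read of 17 nt: cTGTCTGagcgtcgctt

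The second set shows reads from the 5′ ends of 18S, 28S and 5.8S rRNA, the 3′ end of 5S rRNA, the 5′ end of mitochondrial 16S rRNA and an inner stretch of 28S rRNA. They are shown as the leading reads of their annotation names, as other abundant lengths of the same starts, or as reads with an unadjusted limma p under 0.05.
18S 5′ end, 17 nt: tACCTGGttgatcctgc
18S 5′ end, 18 nt: tACCTGGttgatcctgcc
18S 5′ end, 21 nt: tACCTGGttgatcctgccagt
18S 5′ end, 23 nt: tACCTGGttgatcctgccagtag
18S 5′ end, 24 nt: tACCTGGttgatcctgccagtagc
28S 5′ end, 21 nt: cGCGACCtcagatcagacgtg
28S 5′ end, 22 nt: cGCGACCtcagatcagacgtgg
28S 5′ end, 23 nt: cGCGACCtcagatcagacgtggc
5.8S 5′ end, 19 nt: cGACTCTtagcggtggatc
5.8S 5′ end, 20 nt: cGACTCTtagcggtggatca
5S 3′ end, 18 nt: cCGGGTGctgtaggcttt
Mitochondrial 16S 5′ end, 21 nt: aCTAATCctagccctagccct
28S inner stretch, 23 nt: aCCATTCgtagacgacctgcttc

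The 3′ end of 5.8S rRNA, the small rRNA that pairs with 28S in the large subunit, gave the most abundant fragments. The 22-nt read of the first set was the top sequence, at 48.2, 210.1 and 41.3 RPM in WT 1 to 3 and 98.3, 224 and 233 RPM in Tau tg 1 to 3. It made up 2.88% of all rRNA RPM, and the groups overlapped. The 21-nt read, 1 base shorter, stood at 35.6, 94.2 and 333 RPM in WT and 79.3, 89.5 and 177 RPM in Tau tg. WT 3 thus held mostly the shorter form, while the other 5 libraries held more of the longer one.

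All 15 sequences that opened with the same 15 bases as the top read, 19 to 25 nt long, summed to 122, 508 and 566 RPM in WT and 265, 618 and 690.2 RPM in Tau tg. This 1 start accounted for 9.34% of rRNA RPM, and its share of the rRNA RPM ran from 2.43% in WT 1 to 14.4% in Tau tg 3. Within it, reads of 22 nt held 30.9%, reads of 21 nt 29.7% and reads of 23 nt 23.8% of the RPM. Its mean read length was 20.7 nt in WT 3 and between 21.7 and 22.2 nt in the other 5 libraries.

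The deposited annotation divided this end between 2 records of 5.8S rRNA according to the last bases, so the records are not separate RNAs. The record AH002077 (59 sequences) summed to 230.5, 762 and 285 RPM in WT and 354, 827 and 721 RPM in Tau tg. The record K01367 (88 sequences) summed to 249, 352 and 747 RPM in WT and 289, 483 and 478 RPM in Tau tg. Summed, the 2 records reached 480, 1114 and 1032 RPM in WT and 643, 1311 and 1199 RPM in Tau tg, a share of 19.5% of rRNA RPM. 5.8S reads filed under other records, such as X82564, are not in this sum. WT 1 and Tau tg 1 were the lowest of their groups, and the groups overlapped (log2 change 0.29 ± 0.44 SE, limma adjusted p = 0.709).

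Counts of 3′ ends around this site took reads that ended at the top read's last base or 1 to 3 bases short of it. Reads running 1 or 2 T beyond it were added, and those with other further bases were left out of the total. Reads ending exactly at the top read's last base summed to 113, 445 and 146 RPM in WT and 184, 425 and 415 RPM in Tau tg. Reads ending 1 to 3 bases short took 36.7%, 21.6% and 72.3% of the total in WT and 35.1%, 24.7% and 30.6% in Tau tg. Reads running 1 or 2 T beyond took 31.6%, 25.8% and 8.3% in WT and 29.0%, 34.5% and 27.3% in Tau tg. WT 3 was thus the library with the largest share of shortened and the smallest share of T-extended ends. The groups overlapped on both measures.

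Among reads with the top read's end or with bases beyond it, 56.5% of the RPM had no further base, 33.7% had 1 further T and 4.37% had 2 further T. Ends with 1 further A held 0.886%, at 0 in all WT libraries and at 4.27, 14.2 and 8.59 RPM in Tau tg. Ends with 1 further G held 3.11%, nearly all of it in WT 2 at 94.2 RPM. No genomic 5.8S sequence was used here, so bases added after cutting and bases of the precursor were not told apart.

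Several single 5.8S reads had a limma p under 0.05 before adjustment for all sequences tested, and none after it. The 23-nt read ending in 3 T stood at 33.7, 105 and 17.4 RPM in WT and 47.5, 174 and 159 RPM in Tau tg (log2 change 1.44 ± 0.70 SE, limma adjusted p = 0.584), and the groups overlapped. The 24-nt read ending in 4 T stood at 0, 0.678 and 5.5 RPM in WT and 8.82, 14.2 and 16.8 RPM in Tau tg (log2 change 2.64 ± 1.11 SE, limma adjusted p = 0.584), without overlap. The 20-nt read stood at 1.41, 1.36 and 87.1 RPM in WT and 7.11, 51.9 and 90.0 RPM in Tau tg (limma adjusted p = 0.584). In WT 3 the 20-nt read was as abundant as in Tau tg 3, so the 3 WT libraries did not form a low group for it.

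A start 1 base further in was also used at this end. Its 8 sequences summed to 121, 79.96 and 102 RPM in WT and 113, 192 and 99.4 RPM in Tau tg. The 22-nt read stood at 70.7, 42.0 and 35.8 RPM in WT and 74.1, 115 and 56.5 RPM in Tau tg, and the 21-nt read at 29.5, 36.6 and 29.4 RPM in WT and 32.3, 75.3 and 16.4 RPM in Tau tg. In all of these the groups overlapped. Another set of 3 short reads of 15 to 17 nt summed to 31.4, 107 and 105 RPM in WT and 72.3, 15.1 and 70.0 RPM in Tau tg. Its 17-nt read stood at 7.03, 75.9 and 71.6 RPM in WT and 40.7, 8.36 and 62.6 RPM in Tau tg.

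The 5′ end of 5.8S rRNA gave 6 sequences with the most toxic seed among the abundant fragments. The seed GACUCU has a viability of 11.3%, the lowest of any rRNA fragment with a mean of at least 10 RPM. The 20-nt read stood at 0, 11.5 and 48.6 RPM in WT and 10.7, 12.5 and 29.5 RPM in Tau tg, with overlap. The 19-nt read was at 0 in all WT libraries and stood at 2.28, 43.5 and 9.41 RPM in Tau tg (limma adjusted p = 0.584). Most of that group mean came from Tau tg 2, and the limit that a count of 0 allows in WT 3 lies above the value in Tau tg 1. All 6 sequences of this start summed to 0, 12.2 and 49.5 RPM in WT and 16.1, 96.2 and 38.9 RPM in Tau tg.

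The 5′ end of 18S rRNA, the rRNA of the small subunit, was the next most abundant site. Its 29 sequences shared their first 15 bases, ran from 15 to 28 nt and summed to 229.5, 579 and 446 RPM in WT and 254, 139.7 and 285 RPM in Tau tg. WT 2 was highest and Tau tg 2 lowest, and WT 1 lay among the Tau tg libraries. Reads of 21 nt held 23.4%, reads of 24 nt 13.9%, reads of 23 nt 13.4% and reads of 17 nt 12.3% of this RPM, so no length dominated. The mean length ran from 19.8 nt in WT 1 to 23.5 nt in Tau tg 2.

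The 21-nt read stood at 65.1, 157 and 54.1 RPM in WT and 51.2, 42.7 and 58.5 RPM in Tau tg. The 17-nt read, cut 4 bases earlier, stood at 66.5, 2.03 and 115 RPM in WT and 30.9, 7.53 and 16.4 RPM in Tau tg. The 2 lengths thus did not follow each other across libraries, and WT 2, the highest for the longer read, was the lowest for the shorter one. The 23-nt read stood at 9.37, 119.9 and 36.7 RPM in WT and 22.1, 21.7 and 33.1 RPM in Tau tg. The 24-nt read stood at 15.5, 43.4 and 81.6 RPM in WT and 20.9, 0.836 and 66.7 RPM in Tau tg, again with overlap.

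The 18-nt read of the same end was the rRNA sequence with the smallest limma p. It stood at 17.3, 16.3 and 35.8 RPM in WT and 2.85, 0 and 0.409 RPM in Tau tg, so that every WT library lay above every Tau tg library (log2 change -3.69 ± 1.08 SE, limma adjusted p = 0.391). All reads of 18 nt under this annotation (M27358) summed to 34.2, 77.2 and 67.9 RPM in WT and 21.8, 0 and 0.409 RPM in Tau tg (log2 change -4.18 ± 1.08 SE, limma adjusted p = 0.201). Neither passed adjustment over the whole table. The record as a whole summed to 397, 903 and 581 RPM in WT and 379, 222 and 428 RPM in Tau tg over 138 sequences, and the groups overlapped.

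The 5′ end of 28S rRNA, the large rRNA of the large subunit, gave 22 sequences that shared their first 15 bases. They summed to 193, 56.2 and 112 RPM in WT and 81.0, 182 and 95.3 RPM in Tau tg, and the group means of 121 ± 69.0 and 119.5 ± 54.8 RPM (SD, n = 3 each) lay close together. Reads of 22 nt held 38.0% and reads of 23 nt 22.8% of this RPM. The 22-nt read stood at 83.4, 4.07 and 59.6 RPM in WT and 19.5, 49.3 and 12.3 RPM in Tau tg. The 23-nt read, 1 base longer, stood at 35.6, 0.678 and 10.1 RPM in WT and 15.2, 56.0 and 46.6 RPM in Tau tg (log2 change 2.01 ± 0.89 SE, limma adjusted p = 0.584). WT 2 was lowest for both.

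The 21-nt read of this end was rare in WT, at 0.937, 0.678 and 0.917 RPM, and stood at 4.84, 21.7 and 12.7 RPM in Tau tg (log2 change 2.73 ± 1.15 SE, limma adjusted p = 0.584). The groups did not overlap, and each WT value was 1 or 2 reads. A 26-nt M19226 read with 1 further base at its start was at 0 in WT and stood at 3.98, 0.836 and 29.9 RPM in Tau tg (limma adjusted p = 0.584). The seed GCGACC of these reads, with a viability of 54.5%, and the base after it are also those of mmu-miR-6406. In all, 24 rRNA sequences with a mean sum of 124 RPM shared positions 2 to 8 with that miRNA, more RPM than with any other mature miRNA.

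An inner stretch of 28S rRNA gave the 23-nt read shown last in the second set. It stood at 0, 0.678 and 0.917 RPM in WT and 18.4, 21.7 and 12.3 RPM in Tau tg (log2 change 3.61 ± 1.13 SE, limma adjusted p = 0.584). Every Tau tg library was well above every WT library for this 1 read. All reads under the 28S record NR_003279, which come from another stretch, stood at 0, 0.678 and 0 RPM in WT and 18.2, 17.6 and 18.4 RPM in Tau tg (log2 change 4.0 ± 1.52 SE, limma adjusted p = 0.587). That record held only 11 sequences, 9 of them in 1 library each, and 1 read held 39.4% of its RPM, at 16.7 RPM in Tau tg 2, 4.91 RPM in Tau tg 3 and 0 in Tau tg 1 (sequence cCTCTAAgtcagaatcccgcccag).

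5S rRNA fragments (X71804, 29 sequences) summed to 44.5, 69.1 and 44.0 RPM in WT and 48.8, 106 and 65.9 RPM in Tau tg. The 18-nt read of its 3′ end stood at 7.96, 0 and 43.1 RPM in WT and 6.69, 1.67 and 5.32 RPM in Tau tg. Reads of 20 nt under this name were at 0 in all WT libraries and at 11.1, 20.1 and 23.7 RPM in Tau tg (limma adjusted p = 0.515). 5S reads were short, with 52.0% of their RPM at 15 to 18 nt.

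Mitochondrial 16S fragments (EF108345, 41 sequences) summed to 97.9, 142 and 55.0 RPM in WT and 68.9, 41.8 and 37.2 RPM in Tau tg, with WT 3 among the Tau tg values. Their leading 21-nt read matched the first bases of mt-Rnr2, the 16S gene, at chrM:1094-1114 on the plus strand of GRCm38, and stood at 17.3, 32.5 and 10.1 RPM in WT and 15.7, 28.4 and 12.7 RPM in Tau tg. Of the RPM that matched mt-Rnr2 exactly, 66.3% began at its first base, while only 18.8% of the gene's bases were covered by any read. Reads under the mitochondrial 12S record AY012114 (37 sequences) summed to 57.6, 106 and 68.8 RPM in WT and 35.1, 58.5 and 35.6 RPM in Tau tg. Only 21 of the 37, with 35.8% of the RPM, matched a transcript exactly. The source of the others was not tested, so these sums may hold reads that are not mitochondrial 12S. The highest 12S read that matched mt-Rnr1 lay inside the gene, at bases 833 to 851 of 955, and stood at 32.3 RPM in WT 1 and at 0 in the other 5 libraries. The leading read under the name AY012114, 16 nt long, matched no transcript. It was seen only in WT 2 at 18.3 RPM and in Tau tg 2 at 27.6 RPM.

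The remaining fragments carried the broad names of the nuclear precursor and of 18S rRNA. The record of the whole nuclear precursor, X82564, held 1057 sequences and summed to 2144, 2015 and 1909.9 RPM in WT and 1100.2, 1461 and 1562 RPM in Tau tg. The 18S record X00686 held 740 sequences and summed to 1325, 1448 and 1503 RPM in WT and 865, 1016 and 1092 RPM in Tau tg. Together these 2 names took 58.8% of rRNA RPM. In both, every WT library lay above every Tau tg library.

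No single sequence led in either record. A 24-nt X82564 read was at 6.56, 6.78 and 6.42 RPM in WT and at 0 in Tau tg (limma adjusted p = 0.584). The leading read of X82564, a 20-nt read from 28S, stood at 21.5, 0 and 47.7 RPM in WT and 3.56, 27.6 and 6.55 RPM in Tau tg. Of the X00686 sequences, 393 of 740 matched a GENCODE M21 transcript exactly, and nearly all of these matched Gm42418, a gene model on chromosome 17 that holds an 18S sequence. Reads on Gm42418 covered 62.9% of its 1831 bases from 287 starts, and the most used start held only 2.39% of their RPM. An example is the 24-nt read tACACTGactggctcagcgtgtgc at chr17:39847889-39847912 of GRCm38 (plus strand), which stood at 61.7 RPM in WT 2 and at 0 in the other 5 libraries. The 347 X00686 sequences without an exact match on the sense strand summed to 497, 766 and 739 RPM in WT and 419, 517 and 502 RPM in Tau tg. The most abundant X00686 read, at 90.8 RPM in WT 2 and 0 elsewhere, was among these. Of the 347, 128 matched a mouse transcript exactly on the antisense strand only. In all, 310 of the 347 were in 1 library only. The 347 may include rRNA that is not from mouse, which was not tested, so the X00686 and single-library sums may hold such reads. Without the 347 the difference in rRNA share between the groups was -0.134 points. Of the X82564 sequences, 95 of 1057 matched a transcript, mostly Lars2, whose transcript holds a stretch of 28S sequence, so a nuclear rRNA and a Lars2 source cannot be told apart for them.

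Most rRNA fragments were seen in 1 library only. Of the 2380 sequences, 2028 (85.2%) were above 0 in 1 library and 27 (1.13%) in all 6, compared with 56.8% and 6.19% of tRNA-annotated and 28.8% and 21.3% of miRNA-annotated sequences. The single-library sequences took 73.0%, 63.0% and 61.2% of rRNA RPM in WT and 59.3%, 52.5% and 49.7% in Tau tg. For tRNA-annotated reads this share lay between 7.34% and 16.7%, and for miRNA reads it was at most 0.658%.

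Most of the single-library sequences left in the table held many reads, though some held only 1. The authors had removed rare reads, so these counts were shaped by that filter and do not show how sparsely such fragments were sampled. Their median count was 19, 21 and 15 reads in WT and 18, 16 and 15 reads in Tau tg, and 183 of the 380 in WT 1 had at least 20 reads. In RPM their medians were 8.9, 14.2 and 13.8 in WT and 2.56, 13.4 and 6.14 in Tau tg. The WT medians, taken after that filter, lie above the 0.427 RPM that a count of 0 allows in Tau tg 1. The 27 sequences found in all 6 libraries came mostly from the rRNA ends shown above and held 12.8% to 24.4% of rRNA RPM.

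rRNA fragments differed from miRNA reads of the same library in length and first base. The miRNA reads were chosen by a miRNA annotation, so their length and first base partly follow from that choice. Reads of 19 to 25 nt made up 60.1%, 67.4% and 63.5% of rRNA RPM in WT and 66.9%, 72.1% and 72.7% in Tau tg, against 99.6% of miRNA RPM as a mean. The mean difference was -32.5 ± 4.86 percentage points (SD, n = 6; exact two-sided sign-flip permutation p = 0.03125, adjusted p = 0.03125, the smallest p that 6 libraries allow). Against tRNA-annotated reads the share was higher by 15.7 ± 7.27 points in 6 of 6 libraries (exact p = 0.03125). Where each sequence was counted once, that difference turned to -3.97 points. Reads of 15 to 18 nt made up 30.3% of rRNA RPM as a mean. The commonest single lengths were 22 nt at 15.1% and 21 nt at 13.6%. The 22-nt share was 11.7%, 14.2% and 10.2% in WT and 16.8%, 19.9% and 17.9% in Tau tg, without overlap. Among the lengths of 15 to 29 nt, only 22 and 26 nt did not overlap, and these shares were not tested.

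The length profile depended on the rRNA. For the 5.8S record AH002077, 88.1% of the RPM was 19 to 25 nt long and 41.0% was 22 nt. For X82564 the 19 to 25 nt share was 61.9% and for X00686 it was 58.8%, with peaks of only 11.9% and 11.8%. Reads under the 12S record AY012114, most of whose RPM matched no transcript exactly, had the lowest share of the larger names, at 37.1%.

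U, the base that begins most brain miRNAs, began 24.2%, 34.9% and 31.7% of rRNA RPM in WT and 32.7%, 37.1% and 39.8% in Tau tg. It began 71.4% of miRNA and 73.4% of tRNA-annotated RPM as means, with differences of -38.0 ± 5.45 and -39.9 ± 4.95 points (both lower in 6 of 6 libraries, exact permutation p = 0.03125). C began 27.7% of rRNA RPM against 5.87% of miRNA RPM, and G 17.6% against 2.89%. Much of the U came from the 2 sites shown first: U began 79.2% of M27358 and 51.1% of AH002077 RPM, but 23.1% of X82564 and 6.2% of M19226 RPM, the record of the 28S 5′ end.

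The seeds of rRNA fragments were on average more toxic than those of miRNAs in the same library. The RPM-weighted mean viability was 55.0%, 54.5% and 56.6% in WT and 54.9%, 53.5% and 54.2% in Tau tg. It differed from that of miRNA reads by -3.32 ± 0.827 points and from that of tRNA-annotated reads by -9.04 ± 1.81 points (lower in 6 of 6 libraries, exact permutation p = 0.03125 each). Seeds with a viability under 50% made up 34.7%, 32.8% and 27.1% of rRNA RPM in WT and 32.5%, 32.8% and 31.4% in Tau tg, 8.25 ± 2.92 points above miRNA reads and 13.7 ± 2.19 points above tRNA-annotated reads. G made up 30.1% ± 2.01 of the seed bases in WT and 29.0% ± 0.622 in Tau tg (SD, n = 3), 2.83 ± 1.64 points above miRNA reads and 8.16 ± 1.79 points above tRNA-annotated reads.

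The seed differences from miRNAs did not hold among rRNA sequences found in several libraries. With rRNA fragments restricted to those above 0 in at least 2 libraries, a choice made after seeing the data, the viability difference from miRNA reads was -0.43 points, the difference in the under-50% share was -5.25 points and the G difference was -0.0047 points. Against tRNA-annotated reads the under-50% difference was then 0.213 points, while the viability difference was -6.15 points. The abundant end reads had moderate seeds: ACGCCU, the seed of the main 5.8S start, has a viability of 65.1%, and ACCUGG, that of the 18S start, 57.8%. By name, seeds under 50% made up 39.5% of X00686 and 38.4% of X82564 RPM, but 15.1% of AH002077 and 17.8% of M27358 RPM.

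rRNA fragments were the main source of their 5 leading seeds among the reads recovered with Ago, with mixed shares further down the order. They held 97.5% of all RPM with the seed ACGCCU, 91.9% with ACCUGG, 92.1% with GCGACC, 89.4% with CGCCUG and 68.9% with UGUCUG, the 5 seeds with the most rRNA RPM. They held 93.4% with UACGCC, 83.1% with CGCGAC, 77.8% with GACUCU and 95.1% with GAACAG, which ranked 6 to 9. They held 30.6% with UUCGAU and 15.8% with CUGGUG, which ranked 10 and 11, and 79.3% with CUAAUC at rank 12. In all, 10.8% of rRNA sequences, with 10.6% of the RPM as a mean, shared positions 2 to 8 with any of 1679 mature mouse miRNAs. Besides the 28S start, the 5 sequences of the mitochondrial 16S start shared them with mmu-miR-6420 at a mean sum of 33.7 RPM. Among abundant fragments, a 23-nt and a 19-nt read of X82564 had the next lowest viabilities, 23.4% and 24.9%. Both were found in WT 2 only, at 60.3 and 66.4 RPM.

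The first comparison between genotypes was of the amount of rRNA fragments. They made up 0.522% (95% Wilson interval 0.512 to 0.532), 0.64% (0.627 to 0.653) and 0.633% (0.617 to 0.649) of the reads in WT and 0.349% (0.345 to 0.354), 0.479% (0.467 to 0.492) and 0.497% (0.488 to 0.506) in Tau tg. In RPM these were 5010.2, 6012 and 5795 in WT and 3419, 4617 and 4799 in Tau tg. The groups did not overlap, the means of 0.598% ± 0.0662 and 0.442% ± 0.0807 (SD, n = 3) differed by -0.156 points, and with 3 against 3 no exact test could pass 0.05, so none was run. These shares are of the Ago-bound reads left in the table, and less rRNA cannot be told apart from more of other RNA. Reads of annotations other than rRNA, tRNA and miRNA were also a smaller share in Tau tg, at 8.13%, 12.9% and 13.1% in WT and 5.87%, 9.37% and 9.22% in Tau tg, with overlap through WT 1. The miRNA share was 85.3% ± 4.37 in WT and 88.9% ± 3.16 in Tau tg.

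The members were then divided by how many libraries held them, a choice made after seeing the data and one that the values themselves help decide, since a sequence absent from 1 group more easily falls among the single-library sequences. Single-library rRNA sequences summed to 3656, 3786 and 3549 RPM in WT and 2027, 2422 and 2384 RPM in Tau tg, without overlap. rRNA sequences found in at least 2 libraries summed to 1354, 2227 and 2246 RPM in WT and 1392, 2195 and 2415 RPM in Tau tg, with group means of 1942 and 2001 RPM. The share difference for them was -0.00099 points. Single-library sequences of annotations other than rRNA, tRNA and miRNA were also lower in Tau tg on average, at 42482, 67849 and 70833 RPM in WT and 23874, 45031 and 43073 RPM in Tau tg, and overlapped only through WT 1. Those of miRNA and of tRNA annotation overlapped as well, and no difference between these classes was tested. Read lengths of 19 to 25 nt alone gave a difference of -0.0805 points.

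The 2 broad records divided in a like way. For X82564 the single-library sequences summed to 1904, 1731 and 1459 RPM in WT and 881, 1108 and 1109.6 RPM in Tau tg, while those in at least 2 libraries overlapped at 239.8, 285 and 450.4 RPM and 219.5, 353 and 453 RPM. For X00686 the single-library sequences summed to 1169.6, 1272 and 1289.8 RPM in WT and 746, 836 and 857 RPM in Tau tg. The X00686 sequences found in at least 2 libraries again overlapped, at 156, 176 and 214 RPM and 119, 179.8 and 235 RPM.

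Tested by annotation name across the whole table, no rRNA name passed adjustment. X82564 changed by -0.57 ± 0.38 SE on the log2 scale (limma adjusted p = 0.587) and X00686 by -0.53 ± 0.41 SE (limma adjusted p = 0.587). NR_003279 was the only 1 of 24 names with an unadjusted p under 0.05, against 2.22% of all names tested, and there were 3 such names without WT 1 and 3 without WT 2. Of the 10 rRNA names above 0 in all 6 libraries, 2 (X82564 and X00686) did not overlap between the groups, both lower in Tau tg, against 11.5% of all such names. Of the other names of at least 10 RPM, M19226 (356, 182 and 441 RPM in WT and 183, 274 and 296 RPM in Tau tg), M27443, M27441 and M55272 also overlapped. Their leading reads were sparse: that of M27443 was at 0 in WT and at 4.98, 23.4 and 0.409 RPM in Tau tg, that of M27441 was in WT 3 only at 55.0 RPM, and that of M55272 in WT 2 only at 12.9 RPM. The median log2 change over all names was -0.35, so both broad records lay somewhat below it.

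By name and length, 13 of 137 rRNA groups had an unadjusted p under 0.05, 8 higher and 5 lower in Tau tg, against 1.97% of all such groups, and none passed adjustment, where 0.0219% of all groups did. At a mean of at least 10 RPM the rRNA count was 5 of 73 groups, against 4.65% of all groups tested. Without Tau tg 2 it was 6 of 131, against 1.37%. Without WT 1 there were 7 higher and 9 lower of 135, against 3.12%. After adjustment 1 rRNA group passed with DESeq2, where 264 of 18271 groups did over the whole table. With limma without Tau tg 1, 1 rRNA group passed, where 8 of 18565 groups did. Beside the 18-nt reads of M27358, the lower groups included the 15-nt reads of M19226, at 17.3, 24.4 and 33.9 RPM in WT and 2.7, 0 and 0 RPM in Tau tg (limma adjusted p = 0.515). The lower groups also held the 24-nt and 25-nt reads of X00686 and the 24-nt reads of M27358. The higher groups included the 24-nt reads of AH002077, at 6.56, 2.03 and 5.5 RPM in WT and 18.5, 56.0 and 29.9 RPM in Tau tg (limma adjusted p = 0.515).

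By sequence, 1222 of the 2380 fragments had a mean of at least 1 RPM and were tested, and 971 of these were above 0 in 1 library only. Of them 23 had an unadjusted limma p under 0.05, 19 higher and 4 lower in Tau tg, against 2.23% of all sequences in either direction and 1.44% with higher values in Tau tg. The members' share was thus near the background, but none of the 23 was among the 971 sequences seen in 1 library. The background was not divided by the number of libraries, so members seen in several libraries have no matching share here. None passed adjustment, where 0.0277% of all sequences did. Without Tau tg 2 the count was 9 and without Tau tg 3 it was 10. The split of directions changed when a WT library was left out: there were 11 higher and 12 lower without WT 1, 13 and 10 without WT 2, and 13 and 9 without WT 3. Of the 27 sequences in all libraries, 3 did not overlap between the groups, 2 lower and 1 higher, against 9.31% of all such sequences.

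The count models gave another split on the same reads. edgeR called 122 rRNA sequences at an unadjusted p under 0.05, 103 lower and 19 higher in Tau tg, against 7.11% of all sequences in either direction and 6.12% lower. After adjustment it called 2, against 0.136% of all sequences. DESeq2 called 148, 132 lower and 16 higher, against 9.27% of all sequences in either direction and 8.55% lower, and 19 after adjustment, against 1.27%. In both models the calls over the whole table were mostly lower in Tau tg too. Of the sequences edgeR called before adjustment 103 were in 1 library only, as were 18 of the 19 that DESeq2 called after adjustment, whereas none of the 23 that limma called was. A call on a sequence seen in 1 library compares that library with the others and not the genotypes.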

How the data were processed

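The authors trimmed the reads (Trim Galore per the labels, version not given in the sources used here), compiled unique sequences, removed rare reads and artificial sequences, and annotated the rest with BLAST in the SPOROS pipeline. The deposited values are RPM, scaled by the authors before sequences were removed. The deposited viability score of each 6mer seed, in percent, was used as given. Gel selection of ligated products set which lengths entered the libraries. BLAST can place a read under several records of 1 rRNA, and low values are incomplete because rare reads were dropped.

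From 109434 rows, 65087 were above 0 and 2380 met the rule. Reads were recovered by dividing each value by the worth of 1 read. Of the values, 100% were whole within 0.01 RPM plus a share of 0.0001 of the value, a margin too wide to check the largest values. The members and lists were chosen with earlier results of these data known. limma 3.58.1 with a mean-variance trend was fitted to log2(RPM + 1) for all sequences, names, and name and length groups with a mean of at least 1 RPM, comparing 3 Tau tg with 3 WT libraries, with Benjamini-Hochberg adjustment over the whole table. Fold changes are on that scale, which understates changes of low rows. Tested on simulated counts for this comparison (35529 rows, dispersion 0.1), limma found 94.5% of 200 sequences changed 8-fold after adjustment. At a dispersion of 2 (32511 rows) it found none after adjustment. The dispersion of the rRNA rows was not set against these values, so how many such changes it would find among them is not known. rRNA and other reads of the same library were compared by an exact sign-flip test, adjusted over 10 measures. Starts were grouped by the first 15 bases. Sequences were matched exactly to GENCODE M21 transcripts (GRCm38) on the sense strand. Named sequences were the 12 most abundant, the top read of each name of at least 10 RPM, those with an adjusted p under 0.05, up to 5 per direction with p under 0.05 and no overlap by the largest mean difference, and the 3 of lowest viability at 10 RPM or more. Some reads under rRNA names matched no transcript, and their sequences are not shown. The alternatives were other pseudocounts and filters, median-of-ratios scaling, edgeR 4.0.16 and DESeq2 1.42.0 on the recovered reads, a replicate block, other member sets and leaving out each library. The labels give no batch. Fits ran in R 4.3.3 and the other steps in Python 3.11.15, with pandas 2.3.3, NumPy 2.4.6 and SciPy 1.17.1.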

Additional observations from a re-analysis of the deposited data

How the results depend on the processing

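The share difference of -0.156 points kept its sign under all 12 alternatives run. Keeping only rows that name rRNA alone gave the same value, so that alternative was no separate check. The share difference was -0.0805 points for reads of 19 to 25 nt and -0.00099 points, close to none, for sequences in at least 2 libraries. With 1 library left out it was -0.194 to -0.11 points. The count of rRNA sequences with a limma p under 0.05 was 23, and became 11 with a pseudocount of 5, 1 with a mean of at least 10 RPM, 122 with edgeR and 148 with DESeq2. With 1 library left out it lay between 9 and 23. The count after adjustment stayed at 0 except with edgeR (2) and DESeq2 (19), and was 0 with each library left out. The count of names was 0 at a mean of at least 10 RPM, 2 with median-of-ratios scaling and 1 to 3 with 1 library left out. The count of name and length groups was 5 at a mean of at least 10 RPM, 6 with edgeR and 6 to 16 with 1 library left out. The causes were not tested.

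Replicate numbers did not pair the samples: same-numbered WT and Tau tg libraries correlated at 0.026, 0.0071 and 0.0068 in their deviations, and not every library correlated best with its own number. With the replicate block, 21 sequences, 0 after adjustment, 2 names and 15 groups had a p under 0.05.

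Against miRNA reads, the G difference was 1.45 points for 19 to 25 nt reads (exact permutation p = 0.1875). For rRNA sequences in at least 2 libraries it was -0.0047 points, the viability difference -0.43 and the under-50% difference -5.25 points. Against tRNA-annotated reads, counting each sequence once gave -3.97 points for the 19 to 25 nt share and 3.3 for the under-50% share, and sequences in at least 2 libraries gave 0.213 for the latter. With 5 libraries the exact test cannot go below 0.0625, so these calls are lost by construction. Against miRNA reads the differences then lay between -33.6 and -31.1 points (19 to 25 nt), -39.3 and -36.2 (U start), 2.34 and 3.33 (G), -3.52 and -3.11 (viability) and 7.49 and 9.23 (under 50%). Against tRNA-annotated reads they lay between 13.8 and 18.02, -41.1 and -38.5, 7.58 and 8.65, -9.39 and -8.46, and 13.1 and 14.4 points in the same order.

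Names near 0 changed sign. K01367 (0.0079) was -0.14 with median-of-ratios scaling, -0.15 with DESeq2, and -0.34, -0.09, -0.12 and -0.11 without WT 1, WT 2, Tau tg 2 and Tau tg 3, in a range up to 0.45 with 1 library left out. M55272 (-0.19) was 0.19 with edgeR, and 0.33, 0.66 and 1.09 without WT 2, WT 3 and Tau tg 3, in a range down to -1.57. Precision was limited by 5521 to 24026 rRNA reads per library, and a count of 0 allows 0.427 to 2.75 RPM.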
